A study of Mus musculus with 7 samples.

Results

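Metastasis suppressor genes are defined by function: restoring their expression in a metastatic cell lowers the number of metastases without stopping growth of the primary tumour. The class is mixed in mechanism. Some members are enzymes or scaffolds of kinase cascades, some organise the membrane or the actin cytoskeleton, and some act on chromatin, and loss of their transcripts or proteins has been described in human breast carcinomas that spread. The 10 genes examined here were taken as known members of this class and found by their symbols, not by measured values: Nme1, Nme2, Cd82, Brms1, Map2k4, Map2k7, Pebp1, Arhgdib, Gsn and Drg1. Of these, 9 genes were represented by 20 probe sets that carried a single gene symbol, among 22690 probe sets in all. Map2k7 matched no such probe set and was not analysed here. Drg1 is counted among the 9 by its symbol, although the suppressor also called DRG1 is a different gene, Ndrg1.

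Expression was measured on 1-colour Affymetrix arrays in transplanted mouse mammary tumours of the lines Met1 (3 arrays) and DB7 (4 arrays). Both lines descend from tumours of mice in which the mammary tumour virus promoter drives the polyoma middle T oncogene in mammary epithelium, with DB7 known to carry a mutant form of middle T. Met1 is known to metastasise readily and DB7 seldom, so the comparison asks which transcripts differ between tumours with high and low metastatic behaviour, and it cannot separate that behaviour from any other difference between these lines. Each group is 1 line, the labels name no treatment other than anaesthesia before death, and the labels give neither host strain nor age. The series' design text speaks instead of outcross tumours, and the sample labels were followed. Because separate host animals are not named for the arrays, the p-values measure the spread between samples, which may be technical in part.

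Values are log2 probe set summaries, on which a difference of 1 is a doubling, and differences are Met1 minus DB7. Array medians lay between 6.53 and 6.61. A probe set was tested if at least 3 of the 7 arrays read it above their own median, and passed where limma's Benjamini-Hochberg adjusted p, taken over all 11704 tested probe sets, was under 0.05. Of the markers of mammary epithelium, Epcam, an adhesion molecule, and Krt18, a luminal keratin, lay far above the array medians on every array, at 11.42 to 12.14 and 11.35 to 12.73. Of 6 epithelial markers, Krt19 alone did not reach the tested range. The mean of the 6 was 9.38 to 9.70 in Met1 and 9.98 to 10.15 in DB7, and 4 of the 5 tested were lower in Met1 (Krt7, with a difference of -1.79, Krt18, Epcam and Krt8). The call of Krt8 (-0.32, limma adjusted p = 0.043) held in 3 of 7 refits without 1 array each, with differences of -0.40 to -0.26. The part of this shift in the results below was not tested.

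Most transcripts of the 9 listed genes did not differ detectably between Met1 and DB7 tumours. Of 9 genes, each read at its brightest tested probe set, 1 was lower in Met1 and 0 were higher. Of the 7482 tested genes, 30.9% passed in either direction (17.9% lower and 13.0% higher in Met1). Whether the share among the 9 differs from that among all tested genes was not tested. Of the 9, Nme2 was the gene that passed. At an unadjusted p under 0.05 the count was also 1 gene. An adjusted p is never below its unadjusted p, so at least 30.9% of all tested genes lay under that value. The exact share was not computed, here or for the same counts in the lists below. Differences of the 9 genes ran from 0.03 to 0.38 in size, the largest a 1.30-fold difference, and 26.4% of tested genes had a larger one. Their median was -0.03, against -0.04 over all tested genes. Of the 20 probe sets, 18 were tested, and 1 of these passed against 31.0% of all tested probe sets.

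**Figure D1:**
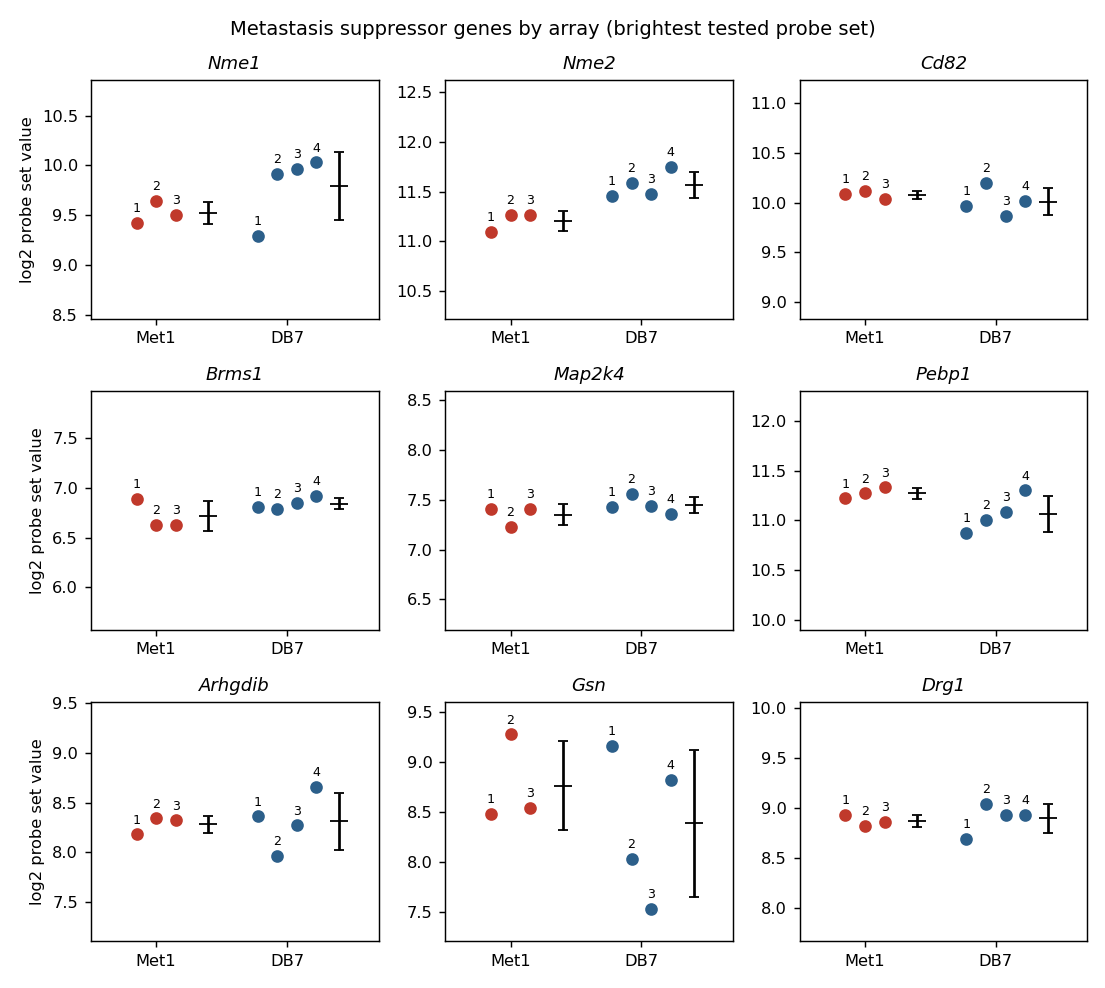
Log2 value of the brightest tested probe set of each gene on every array, with arrays numbered as in the sample titles. Black bars are mean ± SD (n = 3 Met1 and 4 DB7), and every panel spans the same height of 2.4 log2 units. The groups are separate for Nme2 and overlap for the other 8 genes, and Gsn spreads widest within each line.

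A p-value that misses the threshold does not show equality, so the 95% intervals of the differences are given. At the brightest probe sets of 8 of the 9 genes the interval excluded a 2-fold difference in either direction. The exception was Gsn, whose interval reached a 2.33-fold higher level in Met1. For Drg1, Map2k4, Pebp1 and Gsn the interval of another probe set was wider than that of the brightest. On the log2 scale it reached -0.47, -0.50, 0.38 and 1.26.

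**Figure D2:**
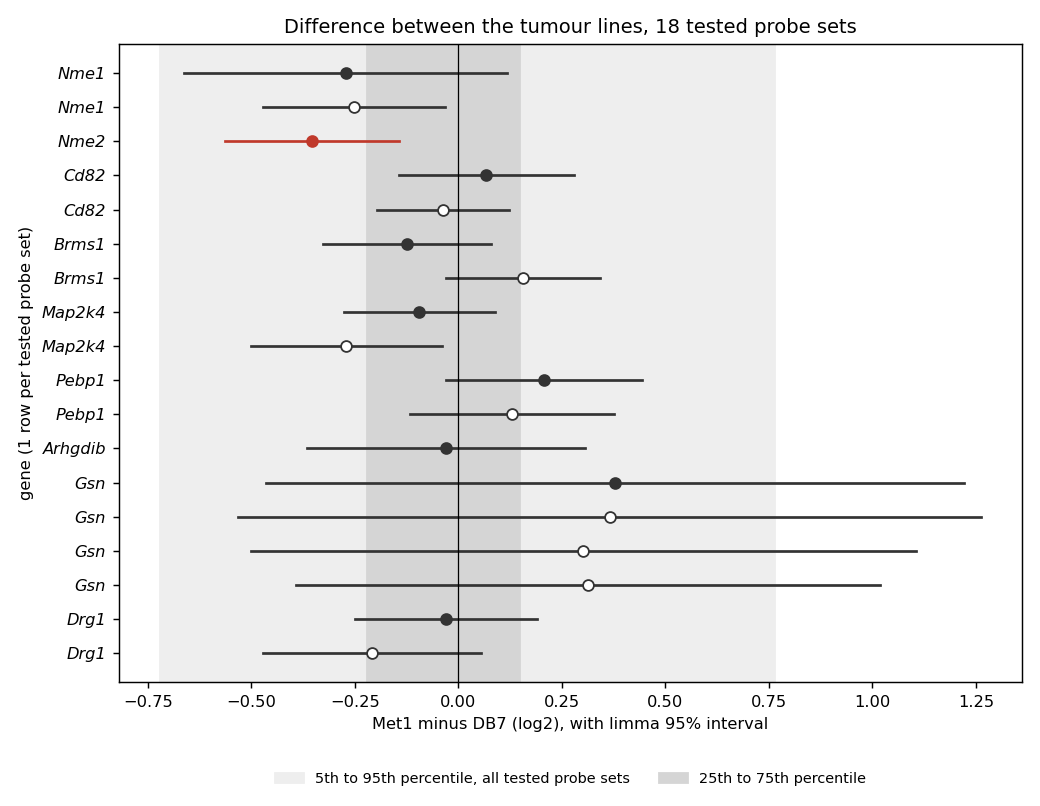
Met1 minus DB7 difference on the log2 scale (point) with limma's 95% interval (line) for the 18 tested probe sets. Filled points are each gene's brightest probe set, red marks an adjusted p under 0.05, and shading gives percentiles of the differences of all 11704 tested probe sets. Nme2 alone is red, and the 4 Gsn intervals are the widest.

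Nme1 and Nme2 encode nucleoside diphosphate kinases A and B, which pass phosphate from ATP to other nucleoside diphosphates, and Nme1 (NM23) was the founding gene of the class. Nme2 measured 11.10, 11.27 and 11.27 on the Met1 arrays 1, 2 and 3, and 11.46, 11.59, 11.48 and 11.75 on the DB7 arrays 1 to 4. Every Met1 value lay below every DB7 value; groups did not overlap for 39.2% of all tested genes. Nme2 was 1.28-fold lower in Met1 (11.21 ± 0.10 against 11.57 ± 0.13, SD, n = 3 and 4; difference -0.35, SE 0.09; limma adjusted p = 0.019). Without the array Met1 1 the difference was -0.30 and did not pass (limma adjusted p = 0.0813), and over all alternatives tried the adjusted p ranged from 0.0102 to 0.0813. In whole tumours, fewer cells of a type and less RNA per cell cannot be told apart.

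Nme1 gave 9.42, 9.64 and 9.50 in Met1 and 9.29, 9.91, 9.96 and 10.03 in DB7 at its brightest probe set. DB7 1 lay below all Met1 values and the other 3 DB7 arrays above all of them, so the groups overlapped through that array. The difference was -0.27 (SE 0.17; 95% interval -0.66 to 0.12; limma adjusted p = 0.268). The other probe set of Nme1 read 8.57, 8.62 and 8.81 in Met1 and 8.79, 9.05, 8.95 and 8.88 in DB7, again with DB7 1 lowest of its group. It differed by -0.25 (SE 0.10; adjusted p = 0.0819). Without DB7 1 both probe sets passed, with differences of -0.44 and -0.29 (limma adjusted p = 0.00715 and 0.0498). Since DB7 1 was the lowest DB7 array at both, leaving it out enlarges the fall by construction. The same holds for each later refit that passed without the array of a line nearest to the other line. Nme1 and Nme2 transcripts are near-identical in long stretches, so signal of one at the probe sets of the other cannot be told apart here.

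Both genes lie next to each other on chromosome 11 in RefSeq's gene order (assembly GRCm38.p6). Of the 10 tested genes nearest Nme2 in that order, Nme1 included, 2 were higher and 1 was lower in Met1, with a median difference of -0.06. Of the other tested NME genes, 0 of 3 passed in limma; at an unadjusted p under 0.05 there was 1, the mitochondrial kinase gene Nme4, at -0.27 (SE 0.10; adjusted p = 0.0743), which passed without Met1 3 (-0.36, adjusted p = 0.0472) and without DB7 3 (-0.33, adjusted p = 0.0457). Nme6 and Nme7 differed by -0.12 and -0.05.

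Cd82 (KAI1) encodes a tetraspanin, a membrane protein with 4 passes that gathers integrins and growth factor receptors into shared patches and slows cell movement. At its brightest probe set it measured 10.09, 10.12 and 10.04 in Met1 and 9.97, 10.20, 9.87 and 10.02 in DB7. The Met1 values sat inside the DB7 range. The difference was 0.07 (SE 0.09; 95% interval -0.14 to 0.28; limma adjusted p = 0.627). The other probe set spanned 8.54 to 8.61 in Met1 and 8.61 to 8.63 in DB7, a difference of -0.04 (SE 0.07; adjusted p = 0.729).

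Among 8 other tested tetraspanins, each at its brightest probe set, 3 were lower and 1 was higher in Met1, with a median of -0.22. Over all tested genes 17.9% were lower and 13.0% higher. Cd9, a tetraspanin of epithelial cells that is itself linked to reduced motility, ran from 10.16 to 10.38 in Met1 and from 10.96 to 11.16 in DB7. It was lower in Met1 by 0.82 in size (difference -0.82, SE 0.09; limma adjusted p = 0.000217), and the groups were well apart. Tspan4 differed by -0.49 (SE 0.11; adjusted p = 0.00914). Cd81, a broadly expressed partner of integrins, was higher in Met1 by 0.45 (SE 0.10; adjusted p = 0.0096), a call that missed narrowly without Met1 2 (difference 0.39, adjusted p = 0.0501). The third to fall was Tspan13 (-0.55, SE 0.13), named here because it completes the count; its other probe set differed by -0.13, and without Met1 1 it did not pass (-0.48, limma adjusted p = 0.0536).

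Brms1 encodes a subunit of SIN3 and histone deacetylase complexes, which remove acetyl groups from chromatin. Its probe sets were dim, close to the array medians, where summaries of this kind can compress differences. The brightest gave 6.89, 6.63 and 6.63 in Met1 and 6.81, 6.79, 6.85 and 6.92 in DB7, and the groups overlapped through Met1 1. It differed by -0.12 (SE 0.09; 95% interval -0.33 to 0.08; limma adjusted p = 0.337). The other probe set was above the array's median on 4 of the 7 arrays, the 3 of Met1 and DB7 4. It thus entered the test through the group where it was high. Its values ran the other way: 6.75, 6.68 and 6.63 in Met1 against 6.47, 6.45, 6.58 and 6.63 in DB7. Met1 3 and DB7 4 were nearly equal there, and the difference of 0.16 (SE 0.08) did not pass (adjusted p = 0.187). The direction of Brms1 therefore differed between its probe sets, and with the mean of both it was 0.02 (SE 0.08).

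Among 8 tested genes of the complex that BRMS1 joins, 0 passed in limma at the brightest probe set, with a median of -0.07. An unadjusted p under 0.05 was reached there by 0 of them. Of all tested genes, 30.9% passed, and whether the complex differs from that share was not tested. Other tested probe sets of 3 genes of the complex did pass. Suds3 was higher in Met1 there (0.32, limma adjusted p = 0.0125), and Rbbp4 and Sin3a were lower (-0.36 and -0.30, adjusted p = 0.0442 and 0.0432). At its brightest probe set Suds3 went the other way (-0.12). Every Met1 value lay below every DB7 value there, as for 39.2% of all tested genes. Rbbp4 differed by -0.02 at its brightest probe set. Suds3, Rbbp4 and Sin3a were named here after their values were seen. The smallest p-values at the brightest probe sets were those of Rbbp7, a histone-binding subunit (-0.25, SE 0.11; adjusted p = 0.126), Arid4b (0.36, SE 0.18; adjusted p = 0.16) and the scaffold gene Sin3a (-0.23, SE 0.12; adjusted p = 0.168). Arid4b passed without DB7 2 (0.54, limma adjusted p = 0.00683), its highest DB7 array at 7.11. It was above the array median only on the 3 Met1 arrays and DB7 2. Arid4b thus entered the test through the group where it was high. Sin3a passed without Met1 1 (-0.36, limma adjusted p = 0.0423), its highest Met1 array at 8.15. Leaving out such an array enlarges the difference by construction.

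Map2k4 (MKK4) encodes a dual-specificity kinase that phosphorylates the stress kinases JNK and p38. Its brightest probe set read 7.41, 7.23 and 7.41 in Met1 and 7.43, 7.56, 7.44 and 7.36 in DB7, with overlapping groups and a difference of -0.09 (SE 0.08; 95% interval -0.28 to 0.09; limma adjusted p = 0.417). The other probe set read 6.96, 6.87 and 6.92 in Met1 and 7.26, 7.39, 6.98 and 7.12 in DB7. There every Met1 value lay below every DB7 value, as at 39.4% of tested probe sets, with DB7 3 only just above Met1 1. The difference of -0.27 (SE 0.10) did not pass (adjusted p = 0.0761), and without DB7 3 it did (-0.34, adjusted p = 0.0308).

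Around Map2k4 in the cascade, 4 of 15 tested genes were higher and 1 was lower in Met1, with a median of -0.04, a share near the 30.9% of all tested genes that passed. The JNK and p38 kinases that it acts on did not pass at their brightest probe sets, where Mapk8, Mapk9 and Mapk14 differed by -0.04, -0.10 and -0.03. The other tested probe set of Mapk9 did pass, as lower in Met1 (-0.35, limma adjusted p = 0.0211). Map3k7 (TAK1), a kinase above Map2k4, was higher in Met1 by 0.68 (SE 0.09; limma adjusted p = 0.000617) at its brightest probe set and differed by -0.01 at the other, so its direction rests on 1 probe set. Atf2, a transcription factor phosphorylated by JNK and p38, was higher by 0.69 (SE 0.13; adjusted p = 0.0035), and its other tested probe sets differed by 0.64 and 0.09. Mapk8ip1, the scaffold JIP1 that binds JNK, was higher by 0.68 (SE 0.14; adjusted p = 0.00631). Map2k3, which activates p38, completed the rises (0.41, SE 0.10); without Met1 1 it did not pass (0.34, adjusted p = 0.0571). Map3k1 was the gene that was lower (-0.51, SE 0.15; adjusted p = 0.0281), a call lost without Met1 2, Met1 3, DB7 2 or DB7 3 (-0.47, -0.40, -0.45 and -0.46; adjusted p from 0.0644 to 0.118). Map2k3, Map3k1 and the Mapk genes were named after their values were seen.

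Pebp1 encodes RKIP, a small binding protein that restrains signalling to the kinases MEK and ERK. Its brightest probe set gave 11.22, 11.27 and 11.33 in Met1 and 10.87, 11.00, 11.08 and 11.30 in DB7. The Met1 arrays were high, and only DB7 4 reached among them. The difference was 0.21 (SE 0.10; 95% interval -0.03 to 0.44; limma adjusted p = 0.168), and without DB7 4 it passed at 0.29 (adjusted p = 0.0385). The other probe set, at 10.69 to 10.82 in Met1 and 10.40 to 10.86 in DB7, differed by 0.13 (SE 0.11; adjusted p = 0.41) and passed in none of the alternatives tried.

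A further probe set carries the symbols of Tex52, Pebp1 and Foxm1 together and so was not counted as a member. It read 6.38 to 6.69 in Met1 and 7.39 to 7.52 in DB7, a difference of -0.96 (SE 0.09; limma adjusted p = 0.000131). That is opposite in sign to both Pebp1 probe sets. It was above the array median on the 4 DB7 arrays and, in Met1, only on Met1 3. This probe set thus entered the test through the group where it was high. The tested probe sets of Foxm1 alone, a transcription factor of dividing cells, differed by -0.50 and -0.45 (adjusted p = 0.0088 and 0.00872). Foxm1 was looked at after that value had been seen.

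Of the cascade leading to MEK and ERK, 2 of 6 tested genes were lower in Met1 and 0 were higher, with a median of -0.09, beside 17.9% and 13.0% of all tested genes. Braf was lower (difference -0.42, SE 0.08; limma adjusted p = 0.00556). It read 6.15 to 6.30 in Met1 and 6.54 to 6.74 in DB7, close to the array medians. It was above the median on 3 arrays, all of DB7, so it entered the test only through the group where it was high. Under a stricter intensity filter Braf was not tested, and 1 gene of this list was lower. Nras differed by -0.40 (SE 0.10; adjusted p = 0.0181) and passed in none of the 3 fits that left out a Met1 array (adjusted p = 0.0536 without Met1 1, 0.0685 without Met1 2 and 0.0591 without Met1 3); its other probe sets differed by -0.22 and -0.19 without passing. Map2k1, which encodes the kinase MEK1, differed by -0.23 (SE 0.09; adjusted p = 0.0736).

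Arhgdib encodes a GDP dissociation inhibitor, which holds small GTPases in the cytosol in their inactive form. It is known as a transcript of blood cells as well as of some epithelia. It measured 8.18, 8.34 and 8.32 in Met1 and 8.36, 7.96, 8.27 and 8.66 in DB7. The Met1 values lay inside the DB7 range, whose ends were DB7 2 and DB7 4. The difference was -0.03 (SE 0.15; 95% interval -0.37 to 0.31; limma adjusted p = 0.897), and its sign changed under several alternatives, including median centring of the arrays (0.0072).

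Leukocyte markers varied between the same arrays. All 12 listed markers were measured, of which 9 reached the tested range and Cd48, Was and Hcls1 did not. Their mean was 7.22 to 7.40 in Met1, and 7.87, 7.12, 7.26 and 7.65 in DB7 1 to DB7 4, so DB7 2 was lowest and DB7 1 and DB7 4 highest, as for Arhgdib with the upper pair in the other order. Ptprc (CD45), which defines the lineage, ran from 7.09 to 7.56 in Met1 and from 6.72 to 7.65 in DB7. Of the 9 tested, 1 was lower in Met1: Lcp1, an actin-bundling protein that carcinoma cells can also express (-1.10, SE 0.10; limma adjusted p = 7.57e-05). Cd52 and Tyrobp differed by -0.45 and 0.32 without passing, but passed without DB7 2 and without DB7 1 (-0.60 and 0.49; adjusted p = 0.0249 and 0.0294). These counts use the brightest probe sets, where Laptm5 differed by -0.04. Its other tested probe sets differed by 0.74, which passed as higher in Met1 (limma adjusted p = 0.0442), and by -0.02. The part of leukocytes in the Arhgdib values was not tested.

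Gsn encodes gelsolin, which severs and caps actin filaments and is abundant in fibroblasts, smooth muscle and fat as well as in epithelium. Its brightest probe set read 8.48, 9.28 and 8.54 in Met1 and 9.16, 8.03, 7.53 and 8.82 in DB7. Within DB7 the arrays 1 and 4 were high and 2 and 3 low, a 3.10-fold range in 1 line, and Met1 2 stood above the other Met1 arrays. The SD was 0.45 in Met1 and 0.74 in DB7, larger than at 99.0% and 99.4% of tested probe sets. Against that spread the difference of 0.38 (SE 0.37; 95% interval -0.46 to 1.22) did not pass (limma adjusted p = 0.487). It depended on single arrays, at 0.093 without DB7 3, 0.12 without Met1 2 and 0.64 without DB7 1, and passed in none of the 7 refits without 1 array each.

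All 4 tested Gsn probe sets ranked the DB7 arrays alike, with DB7 1 highest and DB7 3 lowest, and put Met1 2 above the other Met1 arrays. Their differences were 0.30 to 0.38. Another 2 probe sets of Gsn, at 3.18 to 3.91, did not exceed the median on any array and were not tested. Without DB7 1 and DB7 4 the differences of the 4 tested probe sets were 0.80 to 1.02 and all passed (limma adjusted p from 0.0243 to 0.0429). Since these arrays hold the highest DB7 values of Gsn, leaving them out raises the difference by construction.

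Stromal markers moved across the arrays in nearly the same order as Gsn. The mean of 10 fibroblast markers, of which 8 reached the tested range and Pdgfra and Pdgfrb did not, was 8.60, 9.18 and 8.90 in Met1 and 9.31, 8.20, 7.87 and 8.82 in DB7. DB7 1 and Met1 2 were the highest arrays and DB7 3 the lowest, both for these markers and for Gsn. Of the 8 tested, 0 passed in limma and 1 had an unadjusted p under 0.05: Thy1, at 0.38 (SE 0.15), which passed without DB7 4 (0.48, limma adjusted p = 0.035). Col1a1, a collagen chain, and Sparc, a matrix glycoprotein, differed by 0.81 (SE 0.52) and 0.56 (SE 0.40). Without 1 array at a time these differences ran from 0.41 to 1.25 and from 0.30 to 0.94, and both passed without DB7 1 (limma adjusted p = 0.04 and 0.0202), the array with the highest fibroblast mean.

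Markers of fat and of contractile cells were measured beside Gsn as well. The mean of 4 adipocyte markers was 6.12, 7.75 and 7.23 in Met1 and 7.84, 6.53, 5.96 and 6.78 in DB7, with the fat hormone gene Adipoq between 5.10 and 8.71. Of the 4, Lep did not reach the tested range. Lpl, Fabp4 and Adipoq differed by 0.52, 0.46 and 0.02, and 0 of the 3 passed, nor did any at an unadjusted p under 0.05 (0). The mean of 5 smooth muscle markers was 7.11 to 7.31 in Met1 and 6.72 to 7.12 in DB7. Of the 5, Myh11 and Cnn1 did not reach the tested range and differed the other way, by -0.11 and -0.09. Mylk, a myosin kinase, was higher in Met1 (0.64, SE 0.10; limma adjusted p = 0.00182). It was above the array median on the 3 Met1 arrays and, in DB7, only on DB7 1 (6.62). Mylk thus entered the test through the group where it was high. Under a stricter intensity filter it was not tested, and 0 genes of this list were higher. Acta2 and Tagln differed by 0.54 and 0.45 without passing, but passed without DB7 1 (0.72 and 0.58; adjusted p = 0.0288 and 0.045). Among endothelial markers 0 of 5 passed, and 0 at an unadjusted p under 0.05, with Plvap, Cdh5 and Egfl7 at 0.48, 0.28 and -0.11, though Cdh5 passed without DB7 1 (0.47, limma adjusted p = 0.0402). The part of stromal cells in the Gsn values was not tested.

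**Figure D3:**
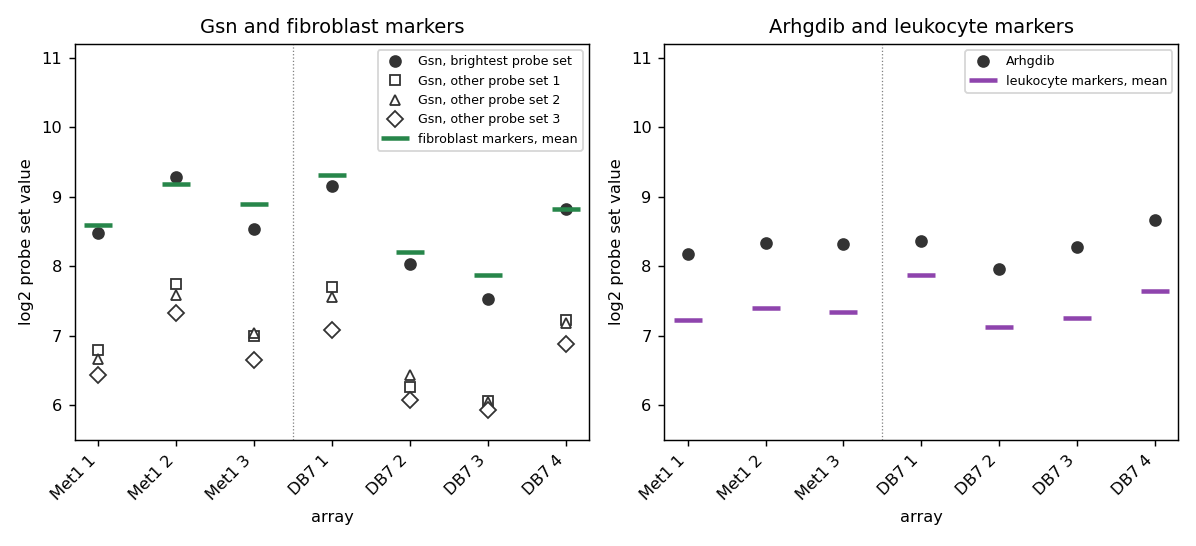
Left: log2 values of the 4 tested Gsn probe sets (black symbols) and the mean of 10 fibroblast markers (green bars) on each array. Right: Arhgdib (black) and the mean of 12 leukocyte markers (purple bars). Gsn and the fibroblast mean are high on Met1 2 and DB7 1 and lowest on DB7 3; levels of different probe sets are not comparable with each other.

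Gelsolin relatives and other regulators of actin filaments were read beside Gsn. Of 12 tested genes, 2 were higher in Met1 and 0 were lower at the brightest probe set, with a median of 0.20, beside 13.0% and 17.9% of all tested genes. Pfn2, a profilin that feeds actin monomers to growing filaments, was higher by 0.83 (SE 0.12; limma adjusted p = 0.00114). It read 6.71 to 6.93 in Met1 and 5.81 to 6.28 in DB7. It was above the array median on the 3 Met1 arrays alone, so it entered the test only through the group where it was high. Under a stricter intensity filter Pfn2 was not tested, and 1 gene of this list was higher. Capzb, a subunit of the capping protein at filament ends, was higher by 0.49 (SE 0.09; adjusted p = 0.00442), and its other tested probe sets also passed, at 0.37 and 0.31. Capg, a capping relative of gelsolin, differed by 0.43 (SE 0.16; adjusted p = 0.0771) and passed without DB7 1 (0.53, adjusted p = 0.032) and with array weights (0.41, adjusted p = 0.0496). Another probe set of Capza2, named after its value was seen, was lower in Met1 (-0.34, adjusted p = 0.0406).

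Drg1 encodes a GTPase of the developmentally regulated GTP-binding family, which binds ribosomes. The metastasis suppressor that was also called DRG1 is a different gene, Ndrg1, and RefSeq lists DRG1 among its synonyms, so both were read. Drg1 gave 8.93, 8.82 and 8.86 in Met1 and 8.69, 9.04, 8.93 and 8.93 in DB7. The Met1 values lay inside the DB7 range, and the difference was -0.03 (SE 0.10; 95% interval -0.25 to 0.19; limma adjusted p = 0.842). Its sign turned under median centring (0.0077). The other probe set, at 8.31 to 8.41 in Met1 and 8.31 to 8.75 in DB7, differed by -0.21 (SE 0.12; adjusted p = 0.21), and without DB7 1 it passed (-0.30, adjusted p = 0.0385).

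Ndrg1, a cytoplasmic protein induced by hypoxia and differentiation, read 9.29, 9.48 and 8.87 in Met1 and 9.66, 9.66, 9.54 and 9.09 in DB7 at its brightest probe set. Met1 3 and DB7 4 were the low arrays of their groups, and the groups overlapped through DB7 4. The difference was -0.27 (SE 0.18; limma adjusted p = 0.283). Its other 4 tested probe sets differed by -0.35 to -0.23, and none of the 5 passed. Of the genes read beside Drg1, its ribosome-associated partner Zc3h15 (DFRP1) was lower in Met1 by 0.53 in size (-0.53, SE 0.15; adjusted p = 0.0293). Drg2, of the same GTPase family, differed by -0.10. The Zc3h15 call was lost under median centring (-0.49, adjusted p = 0.0531) and whenever a Met1 array was left out (adjusted p = 0.0629 without Met1 1, 0.0786 without Met1 2 and 0.114 without Met1 3), while its other probe set differed by -0.61 (adjusted p = 0.00188).

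Further genes described as metastasis suppressors were read for comparison. Of 13 tested, each at its brightest probe set, 4 were lower and 1 was higher in Met1, with a median of -0.27, beside 17.9% and 13.0% of all tested genes. Timp2 did not pass there (-0.45, limma adjusted p = 0.101). Its other tested probe sets at -0.60 and -0.36 passed (adjusted p = 0.0296 and 0.0359), and those at -0.42 and -0.14 did not. Tpm1, a tropomyosin that stabilises actin filaments, was lower by 0.79 in size (difference -0.79, SE 0.09; limma adjusted p = 0.000289), and its other tested probe sets also passed at -0.38 and -0.45. Casp8, the initiator caspase of death receptors, was lower (-0.76, SE 0.10; adjusted p = 0.000474). Cd44, the hyaluronan receptor, which has also been tied to tumour spread, was lower at both tested probe sets (-0.67 and -1.28). Ddit3, a stress-induced transcription factor, was the other one that was lower (-0.48), and Txnip, an inhibitor of thioredoxin, was the one that was higher (1.12, SE 0.25; adjusted p = 0.00867); both were named after their values were seen. Kiss1r and Cdh1, the kisspeptin receptor and E-cadherin, differed by -0.06 and 0.06 without passing. Whether this list differs from the 9 genes was not tested.

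**Figure D4:**
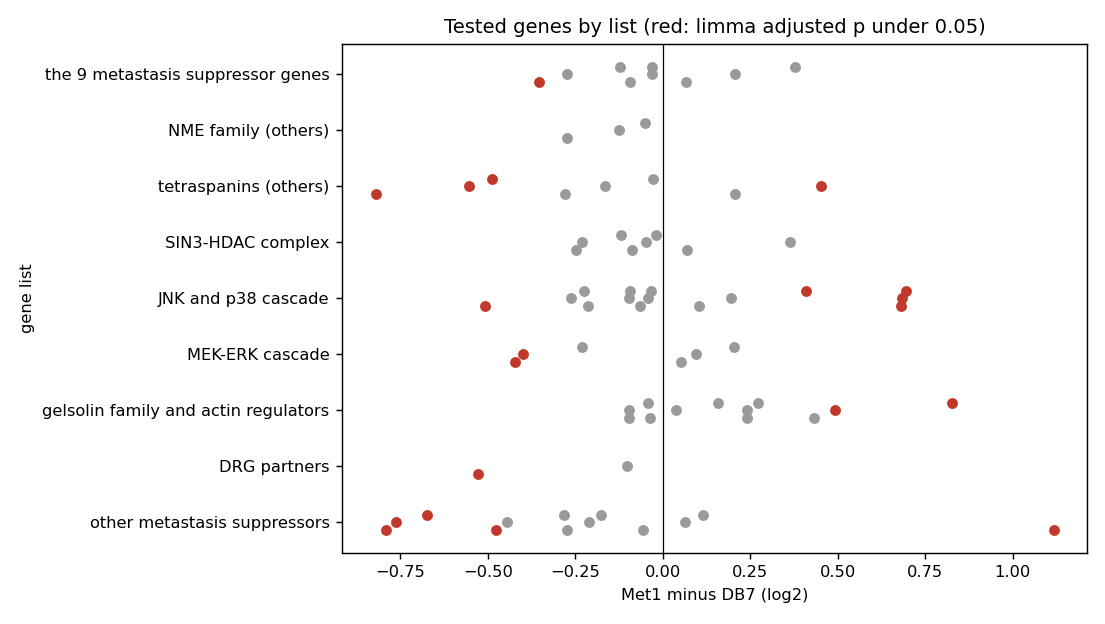
Met1 minus DB7 difference on the log2 scale for each tested gene (1 point at its brightest tested probe set) of the 9 metastasis suppressor genes and of 8 lists of related genes. Red points passed at a limma adjusted p under 0.05. The 9 genes lie between -0.35 and 0.38, and the point farthest right is Txnip at 1.12.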

How the data were processed

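The authors deposited log2 values, 1 summary for each probe set (the scale was inferred from the values, and the log base is not recorded). RMA and MAS5 are both named in the submitters' processing notes, with no role given, and the values were used unchanged. How background was corrected is not given in the sources used here. Of 22690 probe sets, 64 controls were left out. Probe sets were named from GEO's platform annotation, and only those with exactly 1 symbol were used (20380, with 691 carrying several and 1555 none). All 9 member symbols were found in RefSeq's gene table (GRCm38.p6).

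The lines were compared in R 4.3.3 by limma 3.58.1 (lmFit, then eBayes with intensity trend; two-sided; all 7 arrays; no term other than group). A gene was read at its brightest tested probe set. SE are moderated. The fit was tested on simulated data. The number of arrays limits the precision. Same-numbered arrays of the groups did not deviate together (correlations of deviations -0.172, -0.0532 and 0.0157), so numbers were not treated as pairs.

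Members and gene lists were chosen with earlier results of these data known. Named genes are all members, Ndrg1, and the 3 genes of each list with the smallest p; others are marked in the text. Krt8, Ptprc, Pdgfra, Pdgfrb, Krt19, Cd48, Was, Hcls1, Nme7, Kiss1r, Cdh1, Myh11, Cnn1, Lep, Timp2 and Laptm5 were also named after their values were seen. Alternatives covered scaling, filter, variance model, array weights, probe set types, gene averages, single arrays left out, the replicate number as a block and, added after the data were seen, leaving out DB7 1 and DB7 4. Results of 1 gene list are not reported here.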

Additional observations from a re-analysis of the deposited data

Results flagged for a closer look

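The Nme1 level of the array DB7 1 stood apart from its group at the gene's brightest probe set. It was 9.29, against 9.91 to 10.03 on the other 3 DB7 arrays, and the gap to the nearest of them was 0.836 of the group's whole range. This was the 1 such case among the DB7 groups of the 18 tested probe sets examined, where chance gives about 1 in 20. The Nme1 difference passed the threshold without this array, as given above.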

How the results depend on the processing

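Over the alternatives tried, the 18 tested member probe sets gave 291 fitted differences, of which 270 kept direction and side of the threshold, 11 newly passed, 2 lost the call (both Nme2) and 8 turned sign. The member probe sets that passed numbered 1 in the reported fit and 0 to 4 with a single array left out, the genes 1 and 0 to 2, and all tested probe sets 2468 to 3802 with a single array left out. Without probe sets named _x_at, _s_at or _a_at, 0 probe sets and 0 genes of 6 passed, because Nme1, Nme2 and Pebp1 are then untested, and 2302 of 7450 probe sets passed in all. With the replicate block 0 member probe sets and 0 genes passed (Nme2 at -0.29, limma adjusted p = 0.0515; 2803 of all probe sets), Tspan4 gave -0.44 (adjusted p = 0.0542), Nras -0.40 (adjusted p = 0.0591) and Capg 0.50 (adjusted p = 0.0138), and no array correlated best with its own number. Without DB7 1 and DB7 4, 7 probe sets and 3 genes passed (Nme1, Nme2 and Gsn), and 3712 of all probe sets. Signs turned under median centring for Arhgdib (0.0072), Drg1 (0.0077) and the second Cd82 probe set (0.00069). Leaving out single arrays, Arhgdib ranged from -0.15 to 0.086, Drg1 from -0.098 to 0.017 and Adipoq from -0.70 to 0.80. Arhgdib was 0.086 under the replicate block, as without DB7 4, and 0.17 without DB7 1 and DB7 4, where Egfl7 was 0.052. DB7 4 is the only array with its number, so under the block it adds nothing to a difference. Differences under the block therefore repeat those without DB7 4, and a sign that turned there is counted under both. The cause of these turns was not tested.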
